A study of Caenorhabditis elegans with 2 samples.

Results

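Sites recovered with a tagged BTB domain-containing protein, F10B5.3 (also named btbz-2), were read at the genes of the mitochondrial respiratory chain and the ATP synthase in *Caenorhabditis elegans*. The genes were taken by name from the Ensembl annotation: every nuclear protein-coding gene whose name begins with nduf-, ndua-, ndub-, nduc-, ndus-, nuo-, sdha-, sdhb-, sdhd-, ucr-, cyc-, cox- or atp-, together with gas-1, mev-1 and isp-1. This gave 64 of 19973 nuclear protein-coding genes. They fall into 30 genes of complex I, 5 of complex II, 7 of complex III, 15 of complex IV, 5 of complex V and 2 genes of the carrier cytochrome c. The naming rule itself uses no measured value, though it was written with earlier results of these data known.

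Chromatin immunoprecipitation followed by sequencing was done on whole L4 hermaphrodites of strain OP529 (unc-119(tm4063) III; wgIs529), collected 48 hours after synchronization as starved L1 larvae obtained by bleaching. The strain carries an integrated transgene that makes F10B5.3 with GFP and FLAG at its C-terminus, and the tagged protein was precipitated through its GFP, although the antibody field of the labels names F10B5.3 itself. The series holds 1 group of 2 biological replicates from this 1 strain, with no other genotype, stage or treatment, so nothing was compared between conditions and no p-value is given. Whole animals were used, so more cells with a site and more protein at the site in each cell cannot be told apart, and the recovered protein is the transgenic one.

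The respiratory chain lies in the inner mitochondrial membrane. Complex I (NADH dehydrogenase) and complex II (succinate dehydrogenase) pass electrons to ubiquinone, complex III (the cytochrome bc1 complex) passes them on to cytochrome c, and complex IV (cytochrome c oxidase) hands them to oxygen. Complexes I, III and IV pump protons, and complex V, the ATP synthase, uses the resulting gradient to make ATP. Most subunits are encoded in the nucleus and imported, while a few core subunits are encoded in mitochondrial DNA and are not among the genes described here.

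A call is 1 entry of the authors' relaxed peak lists, which hold weak as well as strong sites: 22211 calls for replicate 1, 27642 for replicate 2 and 30000 for the pooled replicates. An IDR peak is 1 of the 862 sites that the authors kept after irreproducible discovery rate analysis, and these were exactly the 862 pooled calls of highest signal. Each gene was given the highest call with a summit no more than 1000 bp from any of its protein-coding transcription start sites (TSS). This was done in each list on its own. The pooled and replicate values of a gene can therefore come from different summits, mostly at weaker calls. The signal is the authors' value for the call. Its scale is not stated and it was compared only within a list, so replicates are set side by side as percentiles among the genes with a call in the same list. Read depth is unknown.

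Respiratory genes lay near a call, and near an IDR peak, in a larger share than nuclear genes as a whole. Of the 64 genes, 54 (84.4%) had a call in the pooled list, against 47.5% of all nuclear protein-coding genes. At an IDR peak were 12 of the 64 (18.8%), against 3.31% of all genes. Of 26 oxidative phosphorylation genes that the naming rule leaves out, 1 was at an IDR peak (3.85%). Among genes with a call, those at an IDR peak made up 22.2% of the respiratory genes and 6.97% of all genes. The median pooled signal of the 54 genes was 44.5, with a range of 18.5 to 489, against a median of 32.9 over all 9483 genes with a call. Of the 54, 40 lay above the median gene with a call. These are counts over genes, and genes that share a summit are not independent.

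The 12 genes at IDR peaks were spread over all of the complexes. They were nduf-2.2, ndub-8, nduf-9, ndua-2, nduf-11 and ndua-8 of complex I, mev-1 of complex II, ucr-2.2 and cyc-1 of complex III, cox-5A and cox-6A of complex IV, and atp-1 of complex V. Neither cytochrome c gene was among them.

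**Figure D1:**
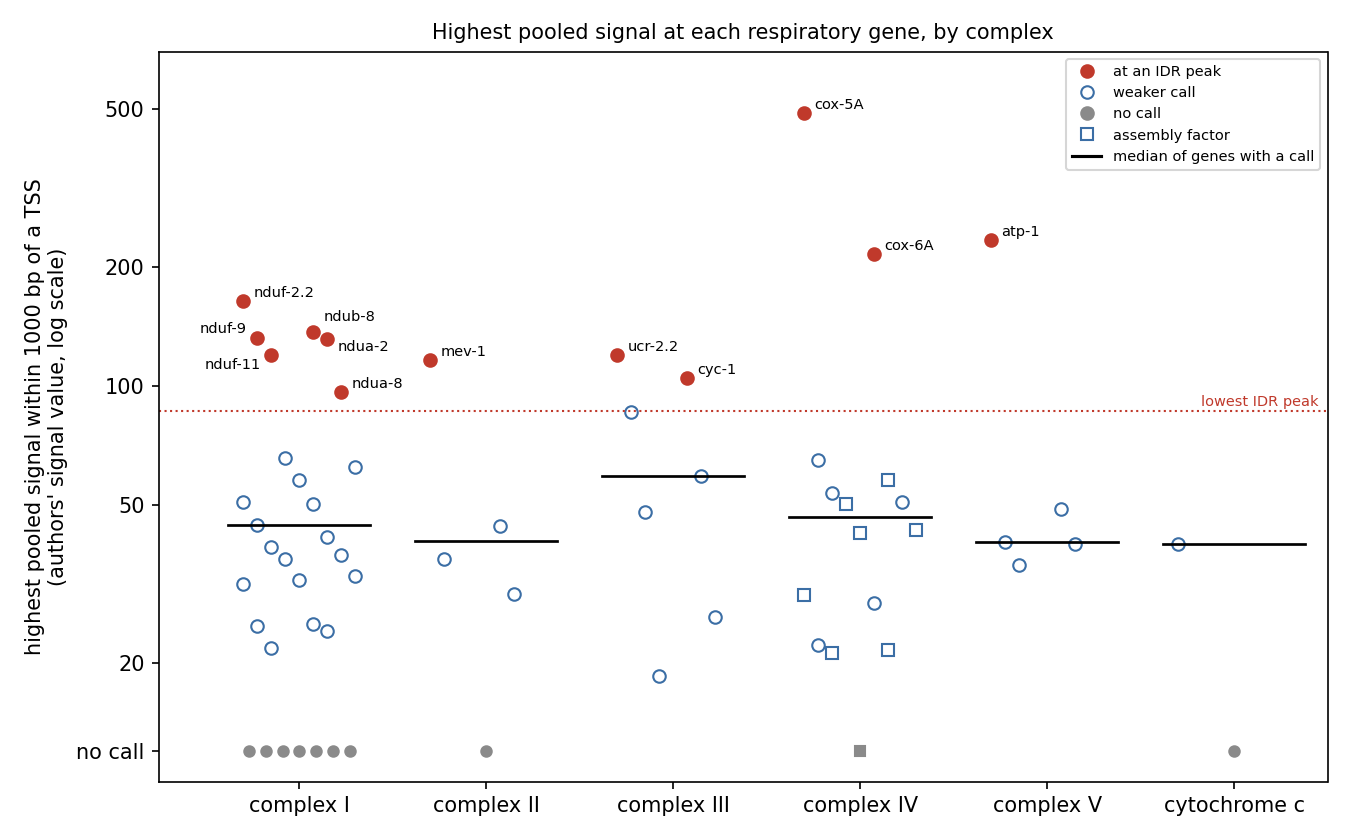
The highest pooled signal within 1000 bp of a TSS (authors' value, log scale) for each of the 64 genes, by complex, with filled red points at IDR peaks, open symbols for weaker calls, squares for complex IV assembly factors and grey symbols at the bottom for genes with no call; bars are medians of genes with a call. The 12 genes at IDR peaks stand between 96.5 and 489, and cox-5A is the highest of them.

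DNA under 8 of these 12 sites is printed here to show how widely they differ in base composition. The lines give 101 bases centred on the pooled summit, read 5′ to 3′ on the strand of the gene, for the 8 genes with the highest signal among those at IDR peaks on chromosomes II, III and X. The windows of atp-1 and ndua-2, with signals of 234 and 132, and those of cyc-1 and ndua-8 are not printed. Bases are from the RefSeq assembly WBcel235, which is the assembly ce11. Capitals mark every match, on either strand, to 1 of 7 short words: the GAGA word GAGAG, the E-box CACGTG, the bZIP half-site TGACG, the GC-box letters CCCGCC, the NRF-1 core GCGCATGC, the TATA letters TATAAA and the splice acceptor TTTCAG.
cox-5A, III:12905157-12905257, plus strand: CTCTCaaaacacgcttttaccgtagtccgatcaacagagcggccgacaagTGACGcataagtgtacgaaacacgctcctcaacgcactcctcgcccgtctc
cox-6A, III:5080863-5080963, plus strand: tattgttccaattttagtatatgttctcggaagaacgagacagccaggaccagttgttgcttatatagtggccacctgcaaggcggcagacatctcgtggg
nduf-2.2, III:6464379-6464479, plus strand: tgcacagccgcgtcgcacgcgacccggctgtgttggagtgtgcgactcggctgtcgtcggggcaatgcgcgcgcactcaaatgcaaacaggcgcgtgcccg
ndub-8, II:13872633-13872733, plus strand: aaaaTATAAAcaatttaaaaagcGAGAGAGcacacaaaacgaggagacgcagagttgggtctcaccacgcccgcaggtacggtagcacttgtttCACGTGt
nduf-9, III:3249106-3249206, minus strand: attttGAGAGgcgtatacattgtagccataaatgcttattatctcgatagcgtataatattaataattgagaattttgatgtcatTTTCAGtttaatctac
nduf-11, II:11345766-11345866, minus strand: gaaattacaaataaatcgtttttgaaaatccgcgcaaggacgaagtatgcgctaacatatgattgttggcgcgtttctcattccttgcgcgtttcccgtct
ucr-2.2, X:15173690-15173790, plus strand: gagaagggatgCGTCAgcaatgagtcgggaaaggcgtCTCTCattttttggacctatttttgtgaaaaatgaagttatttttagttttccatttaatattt
mev-1, III:10334103-10334203, plus strand: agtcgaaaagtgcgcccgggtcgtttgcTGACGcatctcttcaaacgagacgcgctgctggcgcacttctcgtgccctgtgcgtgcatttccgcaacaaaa
GC content ran from 27.7% at nduf-9 to 68.3% at nduf-2.2 among these 8 windows.

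The GAGA word was found at 6 of the 12 IDR summits of respiratory genes (50%), those of atp-1, cox-5A, ndua-8, ndub-8, nduf-9 and ucr-2.2, against 34.6% of all 483 IDR summits near genes. TGACG, which forms part of binding sites of bZIP factors of the ATF and CREB kind, was at 3 of 12 (25%), those of cox-5A, mev-1 and ucr-2.2, against 26.5%. GCGCATGC, the core of the binding site of the mammalian respiratory gene regulator NRF-1, was at ndua-8 alone of the 12 (8.33%), against 0.621%. This is 1 summit, and it was nearer to rbc-2 (120 bp) and Y54F10AM.15 (130 bp) than to ndua-8 (254 bp). The E-box was at ndub-8 alone, against 2.9% of all IDR summits. CCCGCC was at cyc-1 alone, against 7.04%, and TATAAA was at cyc-1 and ndub-8 (16.7%), against 7.04%. TTTCAG, the sequence at worm 3′ splice sites, was at nduf-9 alone, against 8.07%. The windows of cox-6A, nduf-2.2, nduf-11 and ndua-2 held none of the 7 words.

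Over all 53 distinct summits of the respiratory genes, weak calls included, GAGAG was present at 28.3%, against 18.1% of the 8206 distinct summits of all genes. For TGACG the shares were 11.3% and 12.4%, for TATAAA 7.55% and 13.3%, and for TTTCAG 20.8% and 16.4%. CACGTG was at 3.77% against 2.13%, CCCGCC at 1.89% against 3.18%, and GCGCATGC at 1.89% against 0.232%. For CCCGCC and GCGCATGC this is 1 summit each, the cyc-1 and ndua-8 summits already named. The 53 summits include the 12 IDR summits, so they are not a separate set. A match is a string of letters and not a shown binding site, and GAGAG can overlap itself.

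Complex IV held the highest site of all respiratory genes. At cox-5A, a subunit of the oxidase, the IDR peak at III:12905065-12905353 had a signal of 489 in the pool, 173 in replicate 1 and 315 in replicate 2. Its summit lay 284 bp upstream of the TSS, and no other protein-coding gene had a TSS within 1000 bp of it. The gene stood at percentile 99.8 in replicate 1 and 99.9 in replicate 2.

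The other complex IV gene at an IDR peak was cox-6A, also an oxidase subunit, with 215 in the pool, 106 in replicate 1 and 106 in replicate 2. The call spans III:5080688-5081137, and its summit lay 811 bp upstream, within 200 bp of the small nuclear RNA gene F54D8.7. The part of that small RNA gene in the site was not tested. Without calls near small RNA genes, cox-5A is the 1 complex IV gene left at an IDR peak.

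All 7 structural subunits of complex IV had a call, with a median of 53.6. Below the IDR line came cox-5B with 65.0 in the pool (28.8 in replicate 1 and 42.5 in replicate 2) and cox-6C with 53.6. Then came cox-6B with 50.9, cox-4 with 28.3 and cox-7C with 22.2. The cox-6C summit was nearer to grld-1 (357 bp) than to cox-6C (443 bp). The 8 genes with names from cox-10 upward encode factors that assemble the oxidase or supply its heme and copper. None of these was at an IDR peak, and 7 of 8 had a call, with a median of 42.6. Over all nuclear protein-coding genes 3.31% were at an IDR peak and 47.5% had a call. A count of 0 among 8 genes is therefore near the background. The order of the medians differed between replicates. In replicate 1 it was 29.2 for these genes and 23.6 for the subunits, and in replicate 2 21.0 and 34.4. The highest pooled signal among these 8 genes was at cox-14, an assembly factor, with 57.7. Next was cox-10, the heme-modifying farnesyltransferase, with 50.4. The cox-14 summit was nearer to rde-4 (104 bp) than to cox-14 (192 bp). The lowest were the copper chaperone cox-17 with 21.6 and the assembly gene cox-16 with 21.2. Those summits were nearer to other genes, sec-20 (196 bp) for cox-17 and C24G6.8 (305 bp) for cox-16. For cox-11, which is needed to insert copper in yeast, no call was found in any list.

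In complex V, atp-1, the alpha subunit of the catalytic head, stood apart from the rest. Its peak at I:12652159-12652359 had a signal of 234 in the pool, 96.4 in replicate 1 and 134 in replicate 2, with the summit 3 bp upstream of the TSS. That summit also lay 187 bp from the TSS of mcrs-1. The beta subunit gene atp-2, whose product alternates with the alpha subunit in the same ring, had 39.9 in the pool, 21.7 in replicate 1 and 24.5 in replicate 2. The stalk gene atp-3 (the oligomycin sensitivity conferral protein) had 48.9, atp-5 (subunit d) 40.3 and atp-4 (a coupling factor) 35.3. All of these lay below the IDR line, and atp-1 exceeded them in both replicate lists as well.

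Complex I is the largest of the complexes, with 30 of the 64 genes. It gave 6 of the 12 IDR genes and 7 of the 10 genes without a call. Against 47.5% and 3.31% of all nuclear protein-coding genes, 76.7% of its genes had a call and 20% were at an IDR peak. The highest was nduf-2.2, which encodes a core iron-sulfur subunit near the quinone site, with 164 in the pool, 91.9 in replicate 1 and 71.5 in replicate 2. Its summit lay 793 bp upstream, between protein-coding genes, and was closer to dlc-1, a dynein light chain gene with its TSS 650 bp away. In contrast gas-1, which encodes the same kind of subunit, had 39.2 in the pool, 26.0 in replicate 1 and 13.8 in replicate 2. The gas-1 values stood at percentiles 75.1 and 7.10 in the replicate lists, and those of nduf-2.2 at 98.6 and 96.1. The gas-1 value of replicate 1 came from a summit 286 bp from the pooled one, so its replicate values are from different summits.

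The other 5 IDR genes of complex I encode accessory subunits, which surround the electron-carrying core. At ndub-8 the signal was 137 in the pool, 66.2 in replicate 1 and 71.1 in replicate 2, with the summit 186 bp upstream. At nduf-9 it was 133 in the pool, 60.9 in replicate 1 and 79.4 in replicate 2, 581 bp upstream, and Y53G8AL.4 was nearer, at 336 bp. The product of ndub-8 sits in the membrane arm and that of nduf-9 at the foot of the matrix arm. At ndua-2 the signal was 132 in the pool, 63.4 in replicate 1 and 65.5 in replicate 2, 256 bp upstream. This summit was shared with dnj-29, a DnaJ chaperone gene with its TSS 272 bp away, and with fld-1, 814 bp away. The membrane-arm gene nduf-11 had 120 in the pool, 62.2 in replicate 1 and 55.9 in replicate 2, 196 bp upstream, with no other gene in reach. The lowest of the 12 was ndua-8, with 96.5 in the pool, 40.4 in replicate 1 and 55.7 in replicate 2. Its summit was nearer to rbc-2 (120 bp) and Y54F10AM.15 (130 bp) than to ndua-8 itself (254 bp).

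The remaining complex I calls ran up to 65.7, at nuo-2, a core subunit, which had 28.5 in replicate 1 and 36.6 in replicate 2. Next came ndub-10 with 62.4 and the core iron-sulfur gene ndus-8 with 58.0. The core gene nuo-5 had 50.3 and nuo-1, the flavoprotein that takes electrons from NADH, had 36.6. The lowest core gene was nduf-7, at percentile 24.7 of the pooled list. By the product names in RefSeq, the complex divides into 7 core genes, 9 of the beta subcomplex, which forms the distal part of the membrane arm, and 14 other accessory genes. This division was chosen after the values had been seen, and it is a description only. All 7 core genes had a call (median 50.3), as did 12 of the 14 other accessory genes (median 43.0) and 4 of the 9 beta subcomplex genes (median 47.0). Of all nuclear protein-coding genes 47.5% had a call, so the beta subcomplex genes were near the background share. The beta subcomplex genes without one were ndub-2, ndub-5, ndub-6, ndub-11 and nuo-6, and the other 2 complex I genes without one were ndua-5 and nduf-5.

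Complex II is the smallest and also works in the tricarboxylic acid cycle. Its IDR gene was mev-1, which encodes the membrane-anchoring cytochrome b subunit, with 116 in the pool, 42.0 in replicate 1 and 78.0 in replicate 2. The summit lay 124 bp upstream of mev-1 and 135 bp from the TSS of jmjd-4. The flavoprotein genes had weaker calls: sdha-1 had 44.4 in the pool with no call in replicate 1 and 34.6 in replicate 2, and sdha-2 had 36.6 in the pool, 14.9 in replicate 1 and 21.9 in replicate 2. The sdha-1 summit lay within 200 bp of a small RNA gene, D2021.6. The other anchor gene, sdhd-1, had 29.8, and the iron-sulfur subunit gene sdhb-1 had no pooled call.

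Every complex III gene had a call, and the median, 59.3, was the highest of the complexes. The core protein gene ucr-2.2 had 120 in the pool, 50.3 in replicate 1 and 69.8 in replicate 2, with the summit 164 bp upstream and no other gene in reach. The catalytic cytochrome c1 gene, cyc-1, had 105 in the pool, 57.6 in replicate 1 and 47.9 in replicate 2, 306 bp upstream, again alone. Just below the IDR line stood ucr-2.1 with 85.8 in the pool, 40.7 in replicate 1 and 44.8 in replicate 2, where the lowest IDR peak had 86.5. Its summit was nearer to nmat-1 (106 bp) than to ucr-2.1 (280 bp). The third gene of this family, ucr-2.3, had 47.9, and the core protein gene ucr-1 had 59.3. The Rieske iron-sulfur protein gene isp-1, the other catalytic subunit encoded in the nucleus, had the weakest pooled call of the 54 genes, 18.5, with 18.3 in replicate 1 and no call in replicate 2. That replicate 1 call of isp-1 lay 870 bp from the pooled summit. The electron carrier itself had 39.8 at cyc-2.1 (29.9 in replicate 1 and 23.7 in replicate 2) and no call at cyc-2.2. Those replicate values of cyc-2.1 came from summits 899 bp and 569 bp from the pooled one.

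Of the genes taken by name, those at IDR peaks were 20% in complex I, 20% in complex II and 28.6% in complex III. They were 13.3% in complex IV and 20% in complex V. Over all genes the share was 3.31%. Subunit genes under other names, ATP synthase subunits among them, are not counted in these shares. With 5 genes in each of complexes II and V, 1 gene moves the share by 20 percentage points, so the complexes are not told apart by these shares. Median signals ran from 40.3 in complex V to 59.3 in complex III, and the single values overlapped widely among the complexes.

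**Figure D2:**
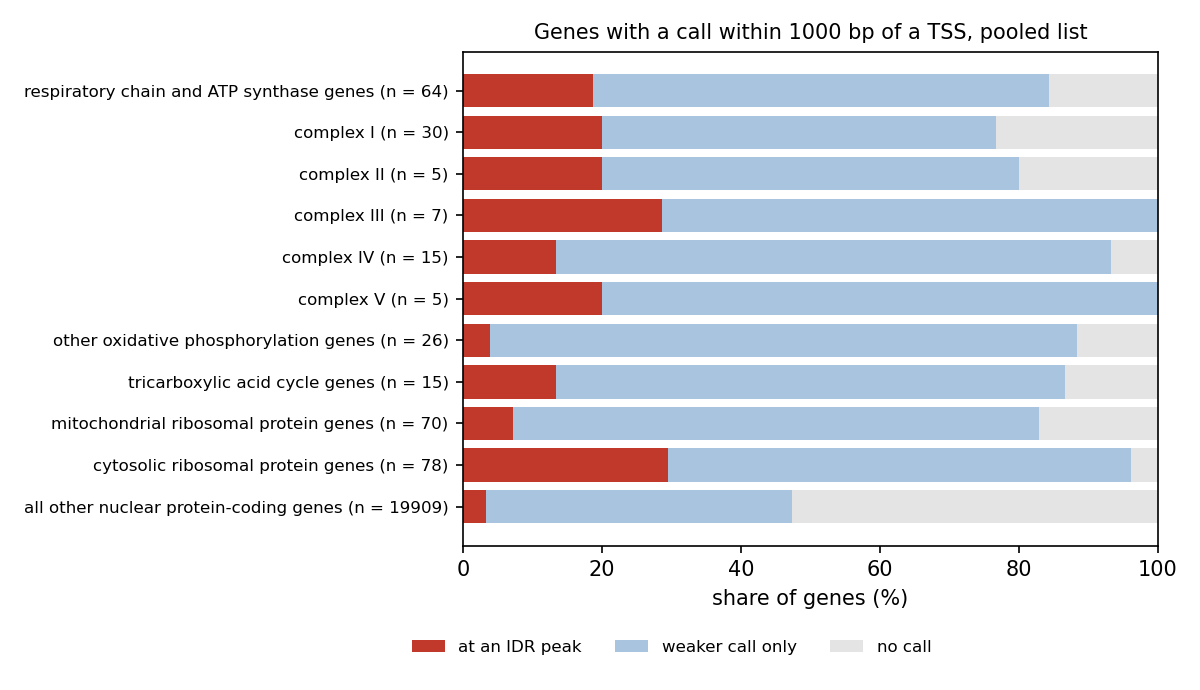
Share of genes (%) at an IDR peak (red), with a weaker call only (blue) or with no call (grey) for the respiratory genes, each complex, 4 other gene lists and all other nuclear protein-coding genes. The respiratory genes had 18.8% at an IDR peak, against 29.5% of cytosolic ribosomal protein genes, 7.14% of mitochondrial ribosomal protein genes and 3.26% of all other genes.

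Both replicates placed the 12 IDR genes near the top, which their selection favors. IDR peaks were derived from the replicate lists and were the highest pooled calls. Their high values in both replicates are therefore not separate support. Every one of them had a summit within 88 bp of the pooled summit in each replicate's list. Their lowest percentile was 91.4 in replicate 1 (ndua-8) and 91.7 in replicate 2 (cyc-1). The 862 highest calls of replicate 1 lay near 11 respiratory genes (17.2%), against 3.18% of all genes. Those of replicate 2 also lay near 11 (17.2%), against 3.35%. In both sets were 10 of the 64 genes, against 448 of all 19973 genes. Of the 12, ndua-8 was missing from the set of replicate 1 and cyc-1 from that of replicate 2. No respiratory gene outside the 12 was in either set.

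Calls were also counted in each replicate's own list. In replicate 1, 49 of the 64 genes (76.6%) had a call, against 41.1% of all genes, and in replicate 2, 53 (82.8%) had one, against 46.7%. The best pooled summit of 30 of the 54 genes (55.6%) had a partner within 100 bp in both replicate lists, against 32.5% of all genes with a call. The 30 are all 12 genes at IDR peaks and 18 of the 42 with weaker calls. Neither list held a partner for atp-5, cox-17, isp-1, ndua-13, ndub-7 and ucr-11. Of these, ndua-13 had a pooled call of 24.0 and no call within reach in either replicate. Examples of unequal placing are atp-4, at percentile 4.52 in replicate 1 and 83.9 in replicate 2, and cox-19, at 85.1 and 15.3. For atp-4 the replicate summits lay 577 bp and 11 bp from the pooled summit, so they are different sites. For cox-19 they lay 19 bp and 3 bp from it. The replicates are both in the pool, so pooled and replicate values are not independent.

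**Figure D3:**
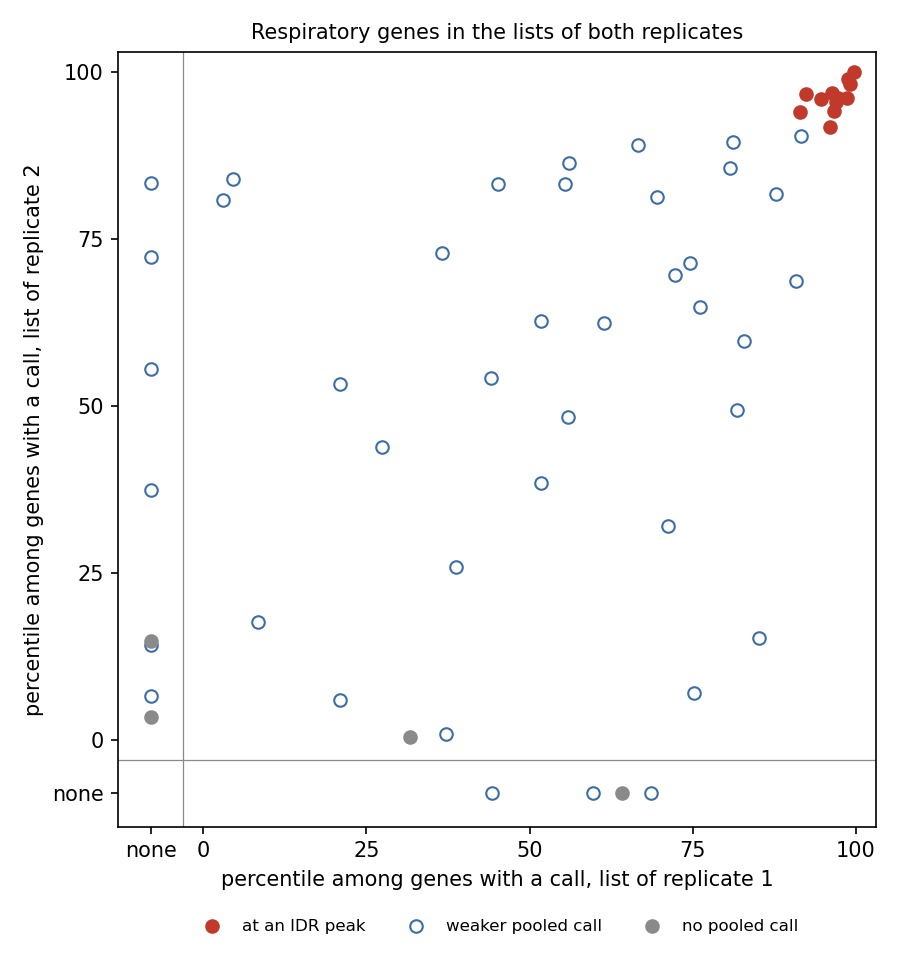
Percentile of each respiratory gene among genes with a call, in replicate 1 (horizontal) and replicate 2 (vertical), with genes lacking a call in a list at "none". The 12 genes at IDR peaks (red) all lie at 91.4 or higher in both lists, which the selection of IDR peaks favors. The weaker pooled calls (open blue) are scattered over the whole range, and grey points have no pooled call.

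The strong sites lay upstream of the genes and the weaker ones on both sides. All 12 IDR summits lay upstream of the TSS, at a median of 255 bp, and outside protein-coding transcripts. Of all genes at IDR peaks, 81.2% had the summit upstream. Of the 42 weaker summits 22 lay upstream and 20 downstream. Of all genes with a call, 53.9% had it upstream. Of the 54 summits of respiratory genes, 27 lay outside protein-coding transcripts, the 12 IDR summits among them. In whatever gene lies there, 11 were in coding exons, 11 in introns, 3 in 3′ UTRs and 2 in 5′ UTRs. These places were not counted over all genes, so no background share stands beside them. Within 300 bp of the TSS were 8 of the 12 IDR summits, against 53.3% of all genes at IDR peaks. The far ones were those of cox-6A, nduf-2.2, nduf-9 and cyc-1.

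**Figure D4:**
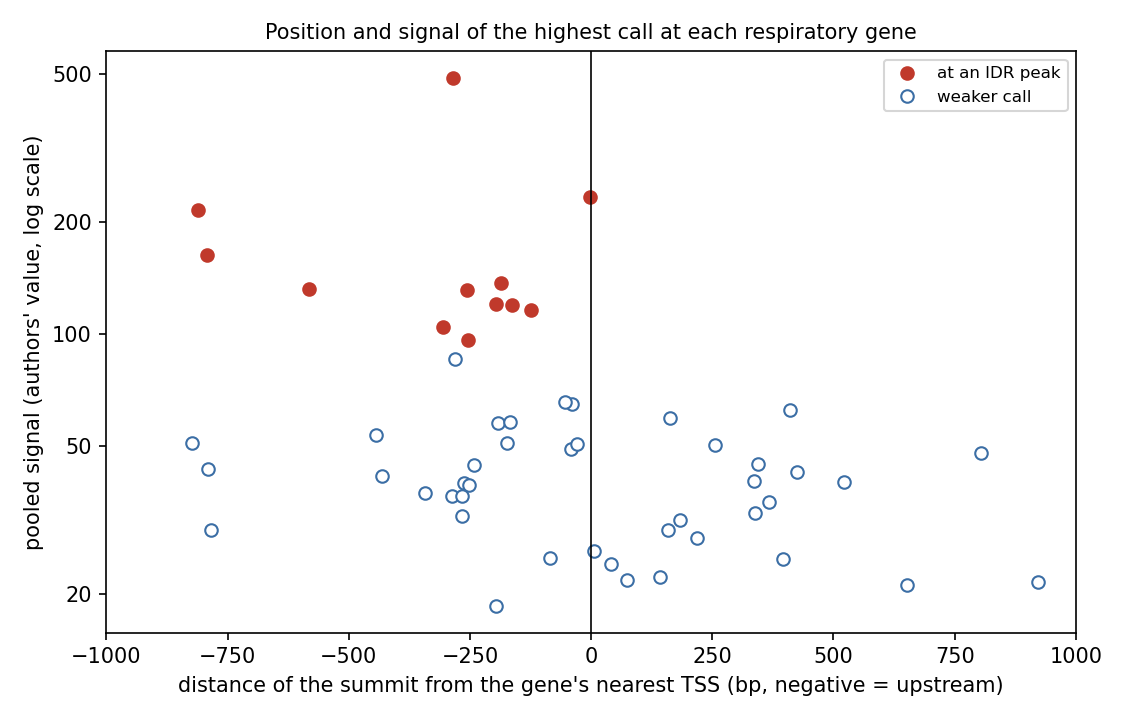
Pooled signal (authors' value, log scale) of the highest call at each of the 54 respiratory genes with one, against the distance in bp of its summit from the nearest TSS of the gene, negative upstream. The 12 points at IDR peaks (red) all lie upstream, from 811 to 3 bp, and the weaker calls (blue) lie on both sides.

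Many of these sites lay near another gene too. Of the 54 respiratory genes with a call, 34 (63.0%) shared the summit with another protein-coding gene within 1000 bp, against 30.1% of all genes with a call. Among the 12 at IDR peaks 7 did so, and the respiratory gene had the nearest TSS in 9. The same counts were not made over all genes at IDR peaks. The list cannot tell which of the genes in reach a site belongs to. At nduc-2 and cox-6B, of complexes I and IV, the best call was 1 and the same, with 50.9, 824 bp upstream of nduc-2. It lay in an intron within the annotated span of cox-6B, 174 bp upstream of the nearer of the 2 cox-6B starts. Another gene, Y71H2AM.20, had a nearer TSS, at 80 bp. The median GC content within 50 bp of the summit was 43.1% for the respiratory genes and 38.6% for all genes with a call. For the 12 at IDR peaks it was 49.5%, with a range of 23.8% to 68.3%.

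Of the genes without a call, 6 had none in any list: ndua-5, ndub-6, ndub-11, nduf-5, cox-11 and cyc-2.2. The other 4 had a call in a replicate's list only: ndub-2 with 22.4 in replicate 1, ndub-5 with 16.3 in replicate 1 and 12.9 in replicate 2, nuo-6 with 13.3 in replicate 2 and sdhb-1 with 15.0 in replicate 2. Just outside 1000 bp the nearest pooled summits lay 1206 bp from ndua-5 (signal 40.8), 1236 bp from nduf-5 (26.5) and 1239 bp from ndub-2 (56.9). Just inside, the nearest summits lay 791 bp from cox-19 (43.2), 784 bp from sdhd-1 (29.8) and 651 bp from cox-16 (21.2). None of these 6 summits was an IDR peak.

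Genes lying close behind another gene on the same strand, the layout of worm operons, were counted because such genes are often transcribed from the start of the gene before. The limit of 150 bp between the genes was chosen after the values had been seen, and membership of an operon was not looked up. Of the 64 respiratory genes 13 (20.3%) lay within 150 bp behind another gene, against 8% of all genes. The 13 leave out nduc-2, which overlaps the end of cox-6B on the same strand. None of the 13 was at an IDR peak, against 12 of the other 51 (23.5%). Over all genes the shares were 2.63% and 3.37%, so a count of 0 among the 13 is near the background.

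The gene before had the higher pooled signal at 6 of the 13, and at 3 of these it was at an IDR peak. The cytochrome c gene cyc-2.1 had 39.8, and the gene before it, the ribosomal protein gene rpl-20, had 687 in the pool, 281 in replicate 1 and 404 in replicate 2. The oxidase assembly gene cox-18 had 42.6, and Y55F3AR.2 before it had 384, with 161 in replicate 1 and 227 in replicate 2. The complex III gene ucr-11 had 26.1, and dad-1 before it, a subunit of the oligosaccharyltransferase, had 126, with 41.1 in replicate 1 and 80.4 in replicate 2. The gene before was at an IDR peak for 23.1% of these respiratory genes and for 7.89% of all genes in such a position. With 3 genes, this is a list of cases. The respiratory gene had the higher pooled value in other pairs. Here nuo-2 had 65.7 and T10E9.14 before it 30.1, and ndub-10 had 62.4 and exos-3 29.0. Further, nuo-5 had 50.3 and Y45G12B.2 38.7, and cox-17 had 21.6 and ubc-20 20.9. Not all of these held in each replicate. Both nuo-2 and T10E9.14 had 36.6 in replicate 2, and both ndub-10 and exos-3 had 23.0 in replicate 1. In replicate 2 cox-17 had 18.6 and ubc-20 19.4, and neither had a call in replicate 1. For nuo-5 and Y45G12B.2 the values were 24.8 and 21.8 in replicate 1, and 26.9 and 24.4 in replicate 2. At nuo-4, with 33.1, the gene before, rnp-7, had no pooled call. In replicate 1 rnp-7 had 14.1 and nuo-4 19.6. At cox-19 both genes had the same 43.2, and at cox-11 neither had a call.

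**Figure D5:**
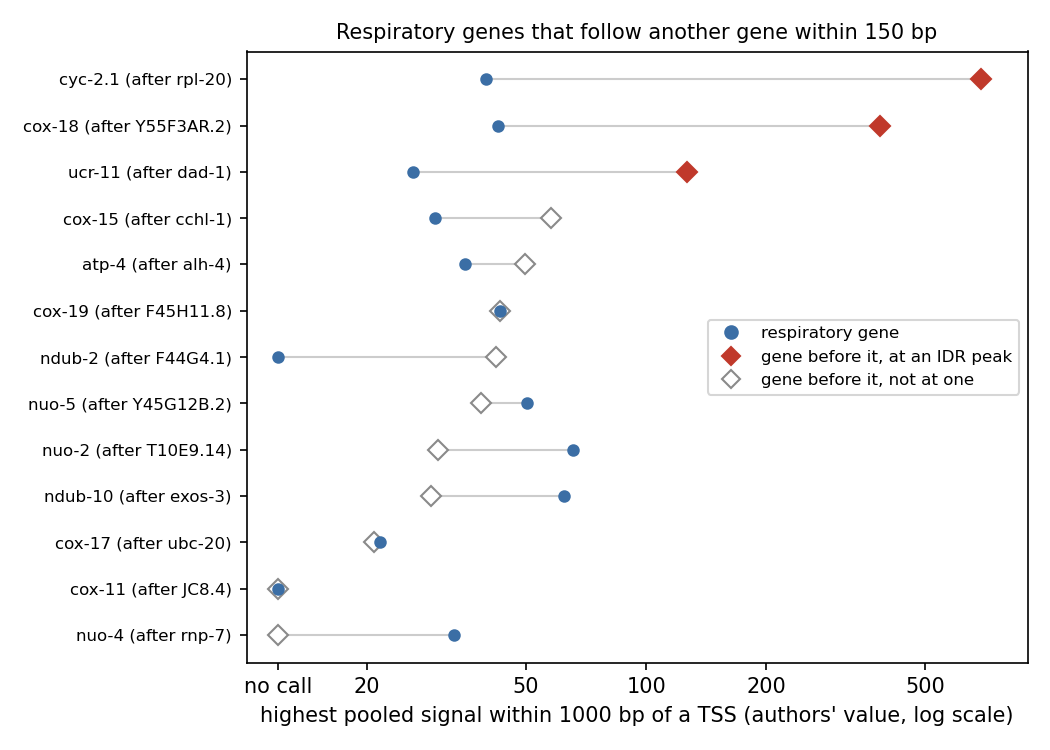
Highest pooled signal within 1000 bp of a TSS (authors' value, log scale) for the 13 respiratory genes that start within 150 bp behind another gene on the same strand (blue) and for the gene before (diamonds, red at an IDR peak). The 3 red diamonds, at rpl-20, Y55F3AR.2 and dad-1, lie far to the right of cyc-2.1, cox-18 and ucr-11.

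By chromosome, all 15 respiratory genes on III had a call, against 61.2% of all genes there, and 6 were at IDR peaks, against 4.85%. On I, 16 of 18 had a call, against 58.4%, and 3 were at IDR peaks, against 4.31%. On II, 8 of 11 had a call, against 46.7%, and 2 were at IDR peaks, against 3.13%. All 4 genes on X had a call, against 47.1%, and 1 was at an IDR peak, against 3.22%. None of the 10 genes on IV or the 6 on V was at an IDR peak, where the shares of all genes were 3.51% and 1.96%, so a count of 0 is near the background. A call was found at 6 of the 10 on IV, against 48.6%, and at 5 of the 6 on V, against 33.9%. On IV lie cox-11, ndua-5, ndub-6 and ndub-11, which had no call.

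Other gene lists place these counts. Cytosolic ribosomal protein genes had a call in 96.2% of 78 genes and an IDR peak in 23 (29.5%), with a median signal of 61.7. Mitochondrial ribosomal protein genes, whose products make the mitochondrially encoded subunits, had a call in 82.9% of 70 genes and an IDR peak in 5 (7.14%), with a median of 32.9, against 32.9 for all genes with a call. The share with a call was near that of the respiratory genes, and the share at an IDR peak was lower. No test was run on that difference, and the lists are not matched for gene density or expression.

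The respiratory genes had a call in 84.4% and a median of 44.5, against 86.7% and 51.7 for 15 tricarboxylic acid cycle genes, and 18.8% at IDR peaks, against 2 of the 15 cycle genes (13.3%). These 2 were aco-2, the aconitase, with 109 in the pool, 47.2 in replicate 1 and 61.1 in replicate 2, and dld-1, the dihydrolipoamide dehydrogenase, with 124 in the pool, 57.0 in replicate 1 and 61.0 in replicate 2. A further 26 genes of oxidative phosphorylation are left out by the naming rule, among them ATP synthase subunits, ubiquinone synthesis enzymes and adenine nucleotide carriers. Of these, 1 was at an IDR peak (3.85%), near the 3.31% of all genes. A call was found at 88.5% of them, against 47.5% of all genes. The IDR gene was ant-1.1, which exchanges ADP and ATP across the inner membrane, with 154 in the pool, 40.8 in replicate 1 and 111 in replicate 2. Next was sco-1, a copper delivery factor of complex IV, with 84.6 in the pool, 27.7 in replicate 1 and 52.4 in replicate 2, just below the IDR line.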

How the data were processed

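Whole-worm ChIP-seq of tagged F10B5.3 was described from the authors' ce11 peak lists. Per the notes that the submitters deposited beside the lists, the authors called peaks for each replicate from its alignment and a control alignment, called them again on the pooled replicates, and derived the IDR set from these 3 lists. The signal of each call is the authors' deposited value on a scale that is not stated. The aligner, the caller, any versions and the IDR cut-off are not given in the sources used here. Lists in ce10 coordinates were not used.

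Each of the 64 genes received its highest call with a summit within 1000 bp of a protein-coding transcript start (Ensembl release 115), in Python 3.11.15 with numpy 2.4.6, scipy 1.17.1 and matplotlib 3.10.9. The assignment was tested on simulated data. Sequences and product names came from RefSeq WBcel235. With 1 group no test was run. Genes were named if at an IDR peak, among the 3 highest of a complex, without a call, nearest to the distance limit, without a replicate partner, or near such a summit; others illustrate a role and were picked after their values were seen. The genes and lists were chosen with earlier results of these data known. Alternative distances, gene assignments and peak sets were tried.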

Additional observations from a re-analysis of the deposited data

How the results depend on the processing

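Of 64 alternative values 55 stayed within 1.5 times the main count, or within the 95% order-statistic interval of the median (39.2 to 53.6, over genes). The number of respiratory genes at IDR peaks, 12, was 9 at 500 bp (without cox-6A, nduf-2.2 and nduf-9), 15 at 2000 bp (with cox-10, cyc-2.1 and ucr-11 added), 9 with each peak given to its nearest gene (without ndua-8, nduf-2.2 and nduf-9) and 7 with only the 431 highest IDR peaks. At 500 bp complex IV kept 1 gene, and also 1 without calls near small RNA genes. With the nearest gene only, complex I had 3. With the 431 highest peaks complexes II and III had 0 each. With 1 replicate left out, using the other's list, complex III had 1 to 2 genes and the median signal was 24.4 to 27.6, each list having its own scale. No paired analysis was possible because the series holds 1 group. Sequencing depth is unknown, so a gene without a call was not detected at this depth and is not shown to lack a site.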
